A study of Mus musculus with 6 samples.

Results

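Protein folding genes of the endoplasmic reticulum (ER) and the genes of the unfolded protein response were followed in liver RNA of mice with and without Gpr146, a G protein-coupled receptor. The 37 genes form a functional module of chaperones of the ER lumen, the machinery that returns misfolded proteins to the cytosol for degradation, stress sensors with their transcription factors, and targets of the PERK and ATF4 branch. For each gene the probe set that carries only its symbol was used, and where a gene had several of these the brightest by its mean of 6 arrays. This found 36 of the 37 genes among 22180 genes of the table; Pdia4 was not analysed here. Of the 36, 33 lay in the upper 50% of mean signal and were tested among 11090 genes, and Sec61b, Trib3 and Chac1 lay below it.

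The samples are livers of 6 male mice on a C57BL/6J background, 3 wild type (WT) littermates and 3 that lack Gpr146 in the whole body (KO), each measured on its own array. All animals were 24 weeks old and were sampled in the same feeding state, 6 hours into refeeding after a fast of 16 hours. The deletion was not confined to the liver, and the array reads a whole piece of tissue. No fasted animals are among the samples, so the values describe refed livers only. The median log2 signal of an array ranged from 2.67 to 2.73, and any pair of arrays correlated at 0.983 to 0.988. The deleted gene itself gave 5.96, 5.56 and 5.65 in WT against 4.61, 4.28 and 3.87 in KO mice, lower in every KO mouse by a mean of -1.47 ± 0.19 (SE; limma adjusted p = 0.0702).

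The ER folds nearly all proteins that a hepatocyte secretes. When unfolded proteins accumulate, they are sensed by ATF6, IRE1 (gene Ern1) and PERK (gene Eif2ak3). ATF6 is cleaved in the Golgi to a transcription factor that raises chaperone genes, IRE1 splices the Xbp1 message so that it encodes a factor for degradation and translocation genes, and PERK phosphorylates eIF2 alpha, which slows translation and favours that of ATF4. In liver this response is engaged by feeding, when secretory load rises, and Sdf2l1 is among the genes known to be induced by refeeding.

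Most folding genes had a higher mean in KO livers, by 1.20 to 1.92-fold for the 7 with an unadjusted limma p under 0.05, although none passed the adjusted threshold. Within the module the PERK branch had no common direction, and its positive members were weak signals. Atf4, Ddit3 and Ppp1r15a lay between -0.39 and -0.25, with Ddit3 at 0.020 once WT mouse 2 was left out. Asns, Chac1 and Trib3 lay between 0.01 and 0.18. Chac1 and Trib3 were below the signal filter of 2.99, and Asns was near it with a mean of 3.14. Of the 33 members tested, 9 were higher and 1 was lower at an unadjusted limma p under 0.05. Over all genes tested 6.16% were higher and 2.98% lower at that level, and 27.3% of the members stood on the higher side. The members were chosen with earlier results of these data known, so these shares are a description and no independent observation. Every KO mouse lay above every WT mouse in 9 members (9.63% of all genes) and below in 2 (5.16% of all genes). No member passed an adjusted p under 0.05, which 4 genes, 0.0361% of those tested, did, so the differences of single members are given below as values that did not pass the test. The median difference was 0.12 over the members and 0.03 over all genes, on the log2 scale of KO minus WT used throughout, and 24 of the 33 members (72.7%) had a positive difference against 57.7% of all genes tested. In bulk tissue, fewer cells of a type and less RNA per cell cannot be told apart.

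**Figure D1:**
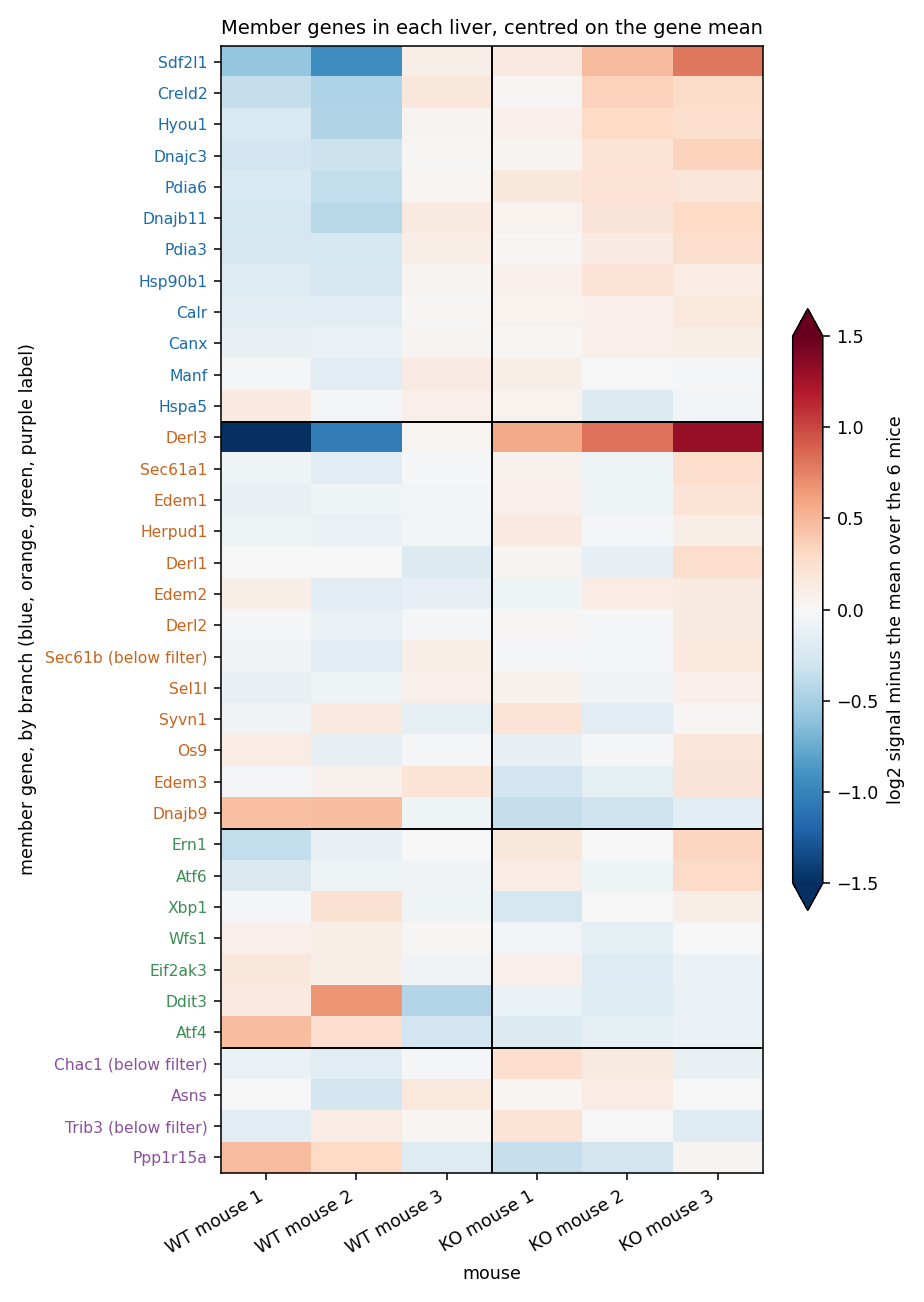
Log2 signal of the 36 members in each of the 6 mice minus the gene's mean over the mice, with genes in rows by branch (label colours blue for folding, orange for degradation and translocation, green for sensors and transcription factors, purple for ATF4 targets) and red for above and blue for below the mean. Sdf2l1 and Derl3 hold the strongest colours, and WT mouse 3 is paler than WT mice 1 and 2 in most folding genes.

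WT mouse 3 stood between the groups. Its value was the WT value nearest to the KO mean in 25 of the 33 tested members (75.8%), against 34.5% of all genes tested. Without it, 11 members were higher and 4 lower at an unadjusted p under 0.05, where the background was 5.39% and 3.59%, and Derl3, Sdf2l1 and Dnajb9 passed the adjusted threshold, which 51 genes or 0.46% did. Leaving out the WT mouse nearest to KO tends to widen a difference by construction, so these calls add no support. With 1 of WT mouse 1, WT mouse 2 and KO mouse 3 left out, the count on the higher side was 5. Each time these were Derl3, Dnajc3, Hyou1, Pdia6 and Sdf2l1. The share of all genes at that level was not computed for these settings, so the 5 cannot be set against a background. The same 5 genes and Dnajb9 kept an unadjusted p under 0.05 in all 15 alternative settings, apart from the upper 25% of signal, where Derl3 was not tested.

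The folding genes come first, largely targets of ATF6 or of ATF6 and XBP1 together. Which of these factors acted on them was not tested. Of the 12 tested, 7 (58.3%) were higher at an unadjusted p under 0.05 and none was lower, against 6.16% and 2.98% of all genes tested. A positive difference was seen in 11 (91.7%), against 57.7% of all genes tested, and the median was 0.32. Without WT mouse 3, 9 were higher (5.39% of all genes tested) with a median of 0.44. Leaving out any 1 of WT mouse 1, WT mouse 2, KO mouse 2 and KO mouse 3 left 4. For these last settings the share of all genes tested was not computed. Sdf2l1 encodes a lumenal protein that works in the BiP chaperone cycle and keeps unfolded clients soluble. Its signal was 6.01, 5.66 and 6.68 in the WT livers, by mouse number, against 6.73, 7.06 and 7.37 in the KO livers. The groups did not overlap, though WT mouse 3 came within 0.06 of KO mouse 1. The difference was 0.94 ± 0.25 (SE), 1.92-fold, with a limma adjusted p of 0.347; the exact two-sided permutation p was 0.1, and groups of 3 can give none lower. Of the 11090 genes, 18 had a larger difference and 162 a smaller unadjusted limma p. With 1 mouse left out the difference ran from 0.71 to 1.22, the latter without WT mouse 3 (limma adjusted p between 0.0475 and 0.652).

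Hyou1, Dnajc3 and Dnajb11 had smaller differences in the same direction. Hyou1, also called GRP170, is the exchange factor that frees BiP of ADP, and measured 8.87, 8.64 and 9.14 in WT and 9.17, 9.40 and 9.37 in KO mice. All KO mice lay above all WT mice, with a difference of 0.43 ± 0.14 (SE; limma adjusted p = 0.409). Dnajc3, the co-chaperone P58IPK, which also inhibits PERK, measured 8.61, 8.58 and 8.91 in WT and 8.94, 9.10 and 9.24 in KO mice. Here too the groups did not overlap, and the difference was 0.39 ± 0.12 (SE; limma adjusted p = 0.400). Dnajb11, the lumenal co-chaperone ERdj3, measured 7.63, 7.49 and 8.04 in WT and 7.95, 8.09 and 8.20 in KO mice. WT mouse 3 exceeded KO mouse 1 there, and the difference was 0.36 ± 0.15 (SE; limma adjusted p = 0.514).

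Of the disulfide isomerases, Pdia6, which also attenuates IRE1 and PERK, had the tightest KO values of the folding genes. It measured 8.75 and 8.61 in WT mice 1 and 2 and 9.15, 9.19 and 9.16 in the KO mice, and WT mouse 3 lay 0.14 below the lowest of these. The SD was 0.20 in WT and 0.02 in KO, and the difference was 0.38 ± 0.11 (SE; limma adjusted p = 0.388). Pdia3, the partner of the calnexin cycle, had group means of 9.50 ± 0.21 and 9.77 ± 0.12 (SD, n = 3 each), and the mice overlapped. Creld2, an ER stress gene with isomerase activity, measured 7.88, 7.78 and 8.41 in WT and 8.26, 8.59 and 8.51 in KO mice, so WT mouse 3 lay inside the KO range. Its difference was 0.43 ± 0.17 (SE; limma adjusted p = 0.509), and 0.62 without WT mouse 3.

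Among the large chaperones the picture was not uniform. Hsp90b1, the lumenal HSP90 known as GRP94, measured 10.58, 10.53 and 10.82 in WT and 10.85, 10.98 and 10.89 in KO mice, with no overlap and a difference of 0.26 ± 0.11 (SE; limma adjusted p = 0.509). Calr, the lectin chaperone calreticulin, measured 10.53, 10.53 and 10.71 in WT and 10.75, 10.76 and 10.85 in KO mice, again with no overlap, at 0.19 ± 0.09 (SE; limma adjusted p = 0.584). Canx, its membrane-bound relative, was at 0.11 ± 0.09 with overlap. Hspa5, which encodes BiP, the central chaperone of the compartment and the classical marker of this response, was the 1 tested folding gene with a negative difference. It measured 8.42, 8.24 and 8.35 in WT and 8.33, 8.08 and 8.24 in KO mice. The groups overlapped, and the difference was -0.12 ± 0.10 (SE; limma adjusted p = 0.761). Manf, a secreted BiP partner, was at 0.04 ± 0.10, with 4.79 ± 0.15 in WT and 4.83 ± 0.06 in KO (SD, n = 3 each). It was -0.035 without WT mouse 2 and -0.0043 after quantile normalization. The contrast between these genes and Sdf2l1 was not itself tested.

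**Figure D2:**
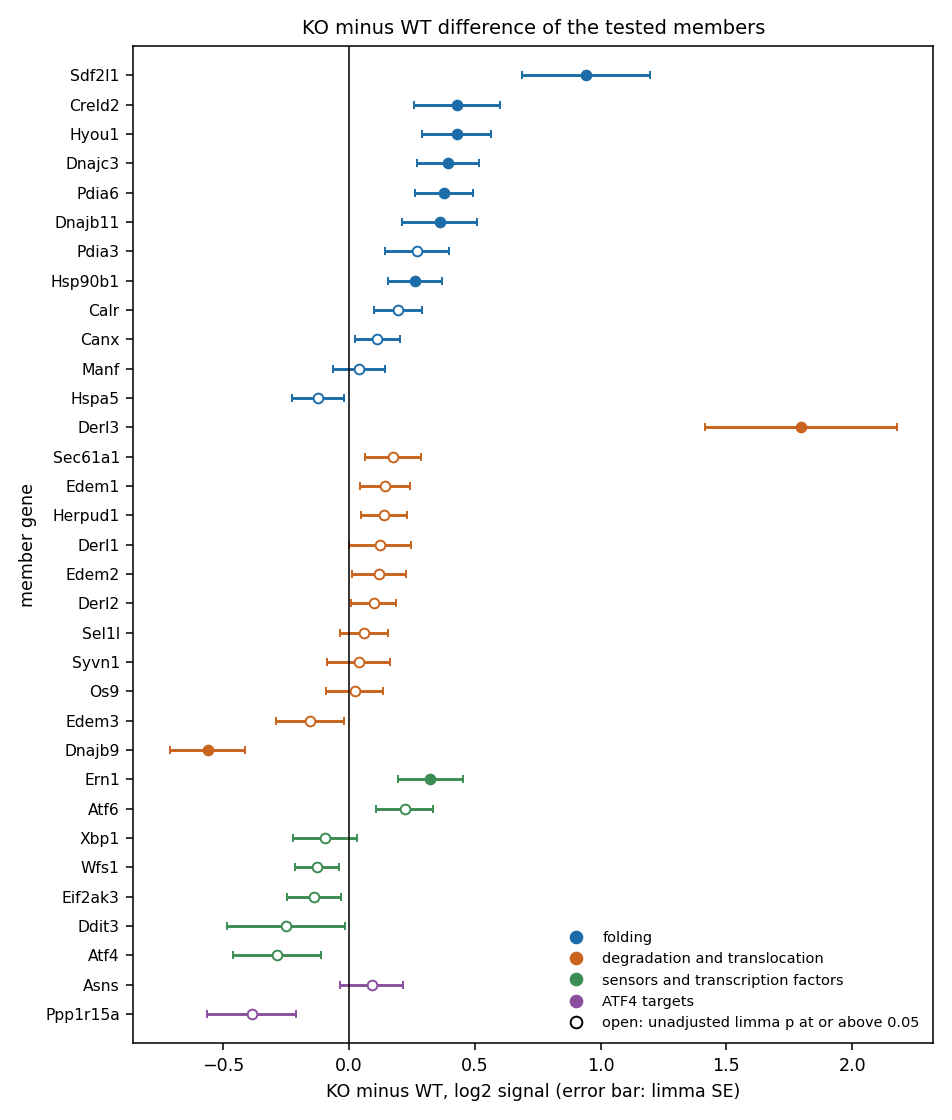
KO minus WT difference in log2 signal of the 33 tested members, with limma's SE as error bars, grouped and coloured by branch; filled points have an unadjusted limma p under 0.05. Derl3 (1.80) and Sdf2l1 (0.94) lie farthest to the right and Dnajb9 (-0.56) farthest to the left, and 11 of the 12 folding genes lie right of 0.

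The ER stress response element (ERSE) is the promoter sequence through which cleaved ATF6, with NF-Y, acts on chaperone genes. Its letters, CCAAT and then CCACG with 9 bases between, were searched on both strands of RefSeq promoter windows (GRCm38.p6, 250 bases before to 50 after each start), which were at hand for 32 of the 37 members. Of these, 9 members had an exact match, against 37 of all 27025 genes with a window, these 9 included (0.137% of those genes). The elements are printed because they are what these members share outside the gene list: the fixed letters are in capitals, the spacer in lower case, and each is read along the strand that carries the motif.
Calr (chr8:84847075-84847093, + strand): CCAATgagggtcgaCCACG
Canx (chr11:50325800-50325818, - strand): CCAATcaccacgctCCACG
Creld2 (chr15:88819520-88819538, - strand): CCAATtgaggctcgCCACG
Derl3 (chr10:75893242-75893260, - strand): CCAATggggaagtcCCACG
Dnajc3 (chr14:118937827-118937845, + strand): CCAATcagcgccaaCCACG
Hsp90b1 (chr10:86705533-86705551, + strand): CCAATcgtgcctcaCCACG
Hsp90b1 (chr10:86705638-86705656, - strand): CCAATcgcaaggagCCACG
Hspa5 (chr2:34772025-34772043, + strand): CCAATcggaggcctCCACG
Pdia6 (chr12:17266491-17266509, + strand): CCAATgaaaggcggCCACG
Syvn1 (chr19:6046532-6046550, + strand): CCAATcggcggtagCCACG

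Hsp90b1 holds 2 copies. Of the 9 members with an ERSE, 5 were higher in KO at an unadjusted p under 0.05, namely Derl3, Creld2, Dnajc3, Pdia6 and Hsp90b1, against 6.16% of all genes tested, and the median difference over the 9 was 0.26. Among folding members alone, 4 of the 7 with an ERSE were higher at that level, and so were 2 of the 3 with a window and no ERSE (Sdf2l1 and Dnajb11, not Pdia3); Hyou1 and Manf had no window to search. The Creld2 element also lies in the window of its neighbour Alg12 (0.11). Hspa5 (-0.12) and Syvn1 (0.04) carried the same letters and had limma adjusted p-values of 0.761 and 0.947. The other 28 genes with an exact ERSE serve as a comparison: 9 were tested, 1 of them higher (Pan2, a deadenylase subunit, at 0.36) and 1 lower (Spats2l, at -0.24), with a median of 0.11. Ero1b, an ER oxidase, is among those 9, at 0.34 ± 0.17 (SE). A match is a description of letters, not evidence of binding, and windows without one say nothing about ATF6.

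The shorter ERSE-II, ATTGG and CCACG with 1 base between, was found in Dnajb11 and Herpud1 and in 0.0444% of all genes with a window. The UPRE letters TGACGTGG were in no member's window and in 0.714% of all genes with a window. The CARE letters TGATGNAA, the composite site of ATF4, were in Asns, Chac1, Trib3 and Herpud1 and in 4.51% of all genes with a window. Whole promoter windows are given for the members with the largest positive differences and for Hspa5, with any ERSE in capitals, spacer included; that of Derl3 lies on the opposite strand and reads there as its reverse complement.
Derl3 (chr10:75893148-75893447, + strand): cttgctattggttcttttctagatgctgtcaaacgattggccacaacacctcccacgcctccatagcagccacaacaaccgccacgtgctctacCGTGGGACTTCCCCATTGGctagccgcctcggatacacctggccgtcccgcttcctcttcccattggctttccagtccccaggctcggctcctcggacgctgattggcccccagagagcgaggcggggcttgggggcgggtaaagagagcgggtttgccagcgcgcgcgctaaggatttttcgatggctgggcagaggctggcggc
Sdf2l1 (chr16:17132334-17132633, - strand): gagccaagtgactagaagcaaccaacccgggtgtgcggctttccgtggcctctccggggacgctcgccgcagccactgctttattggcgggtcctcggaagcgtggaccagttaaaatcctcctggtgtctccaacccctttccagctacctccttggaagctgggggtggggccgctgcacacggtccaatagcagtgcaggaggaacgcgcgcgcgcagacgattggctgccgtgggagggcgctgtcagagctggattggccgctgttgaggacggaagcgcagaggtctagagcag
Hspa5 (chr2:34771840-34772139, + strand): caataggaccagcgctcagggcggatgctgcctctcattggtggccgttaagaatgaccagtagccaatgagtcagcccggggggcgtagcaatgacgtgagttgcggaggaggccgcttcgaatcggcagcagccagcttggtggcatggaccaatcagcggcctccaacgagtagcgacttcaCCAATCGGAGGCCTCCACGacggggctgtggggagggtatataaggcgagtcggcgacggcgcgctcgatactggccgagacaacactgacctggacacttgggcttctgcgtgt

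The element of Derl3 spans bases -156 to -138 from the start site and that of Hspa5 bases -65 to -47. The Sdf2l1 window has no exact match to any of the motifs searched, although its difference was the largest of the folding genes.

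**Figure D3:**
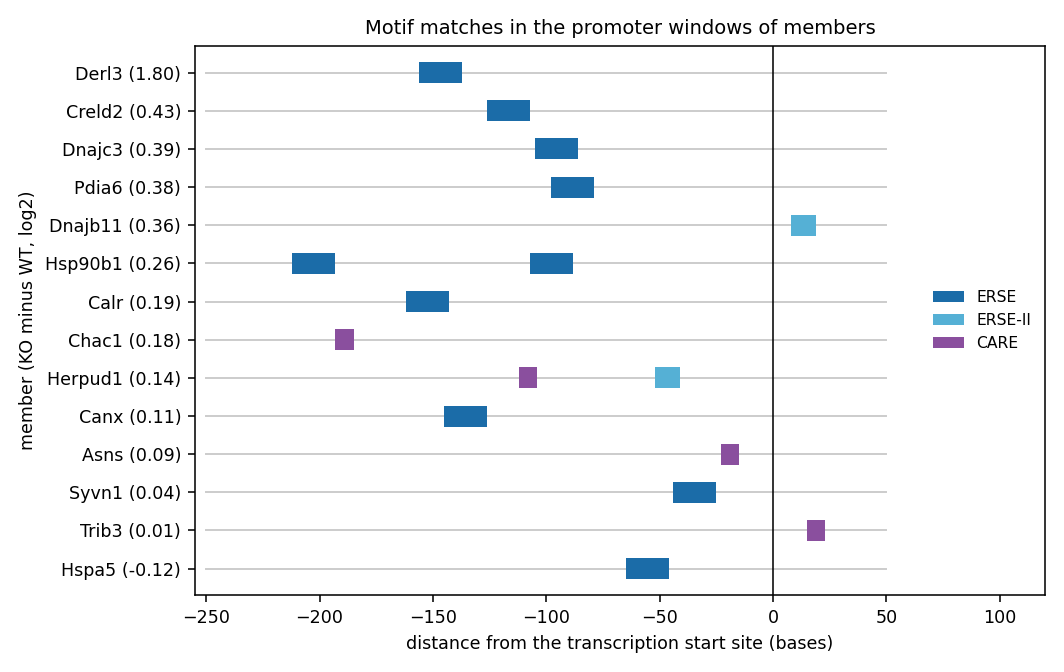
Position of motif matches relative to the transcription start site (bases, on the x axis) in the promoter windows of the 14 members that hold one, ordered by the KO minus WT difference in log2 signal given beside each name; grey lines mark the window and colours the motif. ERSE matches lie between base -212 and base -26, and occur both in members with a positive difference and in Hspa5 (-0.12).

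The degradation side, driven largely by XBP1, was mostly level, with its extremes in opposite directions. Of the 12 genes tested, 1 (8.33%) was higher and 1 lower at an unadjusted p under 0.05, against 6.16% and 2.98% of all genes tested. The median difference was 0.11, or 0.047 without KO mouse 3. Derl3 encodes a derlin, a channel component of the retrotranslocation complex that is strongly induced in ER stress. Its signal was 3.24, 3.86 and 4.94 in the WT livers against 5.47, 5.73 and 6.22 in the KO livers. WT mouse 1 lay near the signal filter of 2.99 and the WT SD was 0.86, and the lowest KO mouse was 0.53 above the highest WT mouse. The difference was 1.80 ± 0.38 (SE), 3.47-fold, with a limma adjusted p of 0.277 and an exact permutation p of 0.1. Of the 11090 genes, 3 had a larger positive difference and 45 a smaller unadjusted limma p. The difference was 1.37 with a pseudocount, which damps weak signals. With 1 mouse left out it ran from 1.41 to 2.26, the latter without WT mouse 3 (limma adjusted p between 0.00691 and 0.513).

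Its paralogs had smaller differences. Derl1 measured 7.82 ± 0.12 in WT and 7.95 ± 0.19 in KO (SD, n = 3 each), a difference of 0.12 ± 0.12 (SE) with overlap. Derl2 measured 6.48, 6.41 and 6.50 in WT and 6.53, 6.50 and 6.65 in KO mice; the groups were separate by only 0.0034, and the difference was 0.10 ± 0.09 (SE). The difference between Derl3 and its paralogs was not itself tested.

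Dnajb9 differed in the opposite direction. It encodes ERdj4, a BiP co-chaperone that represses IRE1 and hands misfolded clients to degradation, and is a textbook XBP1 target. Its signal was 7.87, 7.88 and 7.35 in the WT livers against 7.06, 7.11 and 7.25 in the KO livers. Every KO mouse was below every WT mouse, with WT mouse 3 the nearest. The difference was -0.56 ± 0.15 (SE; limma adjusted p = 0.347, exact permutation p = 0.1). With 1 mouse left out it ran from -0.74, without WT mouse 3, to -0.47 (limma adjusted p between 0.0385 and 0.594). Of the 11090 genes, 115 had a more negative difference and 158 a smaller unadjusted limma p.

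The remaining degradation genes lay close to 0. Herpud1, a scaffold of the ubiquitin ligase complex, measured 10.09, 10.07 and 10.12 in WT and 10.31, 10.13 and 10.26 in KO mice, without overlap but only 0.0061 apart, at 0.14 ± 0.09 (SE; limma adjusted p = 0.670). Sel1l and Syvn1, the adaptor and the ligase HRD1 of that complex, were at 0.06 ± 0.10 and 0.04 ± 0.13. The mannose-trimming lectins Edem1, Edem2 and Edem3 were at 0.14 ± 0.10, 0.12 ± 0.11 and -0.16 ± 0.14, and the lectin Os9 at 0.02 ± 0.11. All of these overlapped between the groups. Sec61a1, the pore of the translocon, was at 0.17 ± 0.11. The Sec61b probe set, at 2.61 ± 0.12 in WT and 2.69 ± 0.11 in KO (SD, n = 3 each), was below the filter and was not tested.

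**Figure D4:**
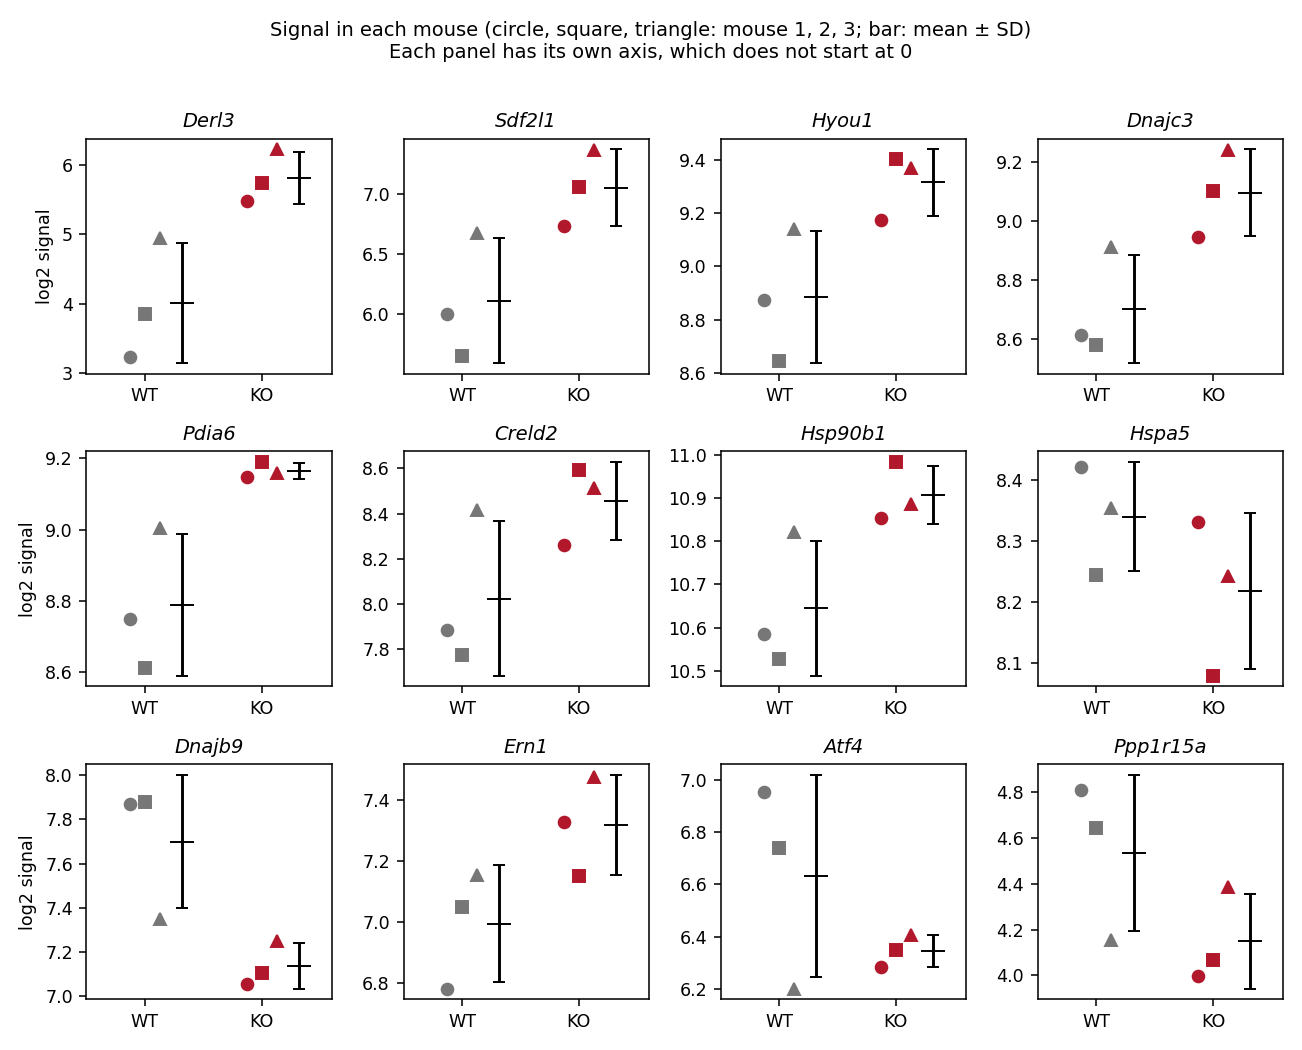
Log2 signal of 12 members in each mouse, WT in grey and KO in red, with circle, square and triangle for mice 1, 2 and 3 and a bar for mean ± SD (n = 3); every panel has its own axis. KO mice lie above all WT mice in Derl3, Sdf2l1, Hyou1, Dnajc3, Pdia6 and Hsp90b1 and below them in Dnajb9, and WT mouse 3 (grey triangle) is the WT mouse nearest to KO in each of these.

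At the level of the sensors, Ern1 and Atf6 had positive differences and Eif2ak3 a negative one, none past the adjusted threshold. Ern1 was the 1 of these 7 genes with an unadjusted p under 0.05, where 6.16% of all genes tested were higher. It measured 6.78, 7.05 and 7.15 in WT and 7.33, 7.15 and 7.48 in KO mice. WT mouse 3 and KO mouse 2 met at 7.15, and the difference was 0.32 ± 0.13 (SE; limma adjusted p = 0.509). Atf6 measured 7.14, 7.30 and 7.31 in WT and 7.47, 7.30 and 7.65 in KO mice, a difference of 0.22 ± 0.11 (SE; limma adjusted p = 0.602). Eif2ak3 measured 4.71, 4.64 and 4.49 in WT and 4.62, 4.35 and 4.46 in KO mice, at -0.14 ± 0.11 (SE). These are RNA levels; cleavage of ATF6 and phosphorylation of IRE1 and PERK were not measured.

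Total Xbp1 message had a difference smaller than its error. It measured 7.84, 8.08 and 7.78 in WT and 7.61, 7.87 and 7.95 in KO mice, at -0.09 ± 0.13 (SE; limma adjusted p = 0.863), and at 0.0054 once KO mouse 1 was left out. The probe set is summarised over the gene and its value does not separate spliced from unspliced Xbp1. Wfs1, the ER membrane protein wolframin, measured 5.34, 5.35 and 5.28 in WT and 5.22, 5.12 and 5.25 in KO mice. Its groups did not overlap, KO being lower by a small step, with a difference of -0.13 ± 0.09 (SE; limma adjusted p = 0.686).

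The factors below PERK were spread widely in WT and tightly in KO. Atf4 measured 6.95, 6.74 and 6.20 in WT and 6.28, 6.35 and 6.41 in KO mice, an SD of 0.39 against 0.06. WT mouse 3 was the lowest of the 6, so the groups overlapped, and the difference was -0.29 ± 0.18 (SE; limma adjusted p = 0.653), or -0.50 without WT mouse 3. Ddit3, the pro-apoptotic factor CHOP, measured 5.20, 5.72 and 4.62 in WT and 4.96, 4.88 and 4.96 in KO mice. Its SD was 0.55 in WT and 0.04 in KO, and the difference was -0.25 ± 0.23 (SE). Leaving out WT mouse 3 made it -0.53, and leaving out WT mouse 2 made it 0.020.

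Their targets gave no common direction, and all but Ppp1r15a lay near or below the signal filter. Ppp1r15a, the stress-induced phosphatase subunit GADD34 that reverses eIF2 alpha phosphorylation, measured 4.54 ± 0.34 in WT and 4.15 ± 0.21 in KO (SD, n = 3 each), a difference of -0.39 ± 0.18 (SE; limma adjusted p = 0.562) and -0.58 without WT mouse 3. Asns, asparagine synthetase, with a mean signal of 3.14, was at 0.09 ± 0.12, and at -0.031 with WT mouse 2 left out. Trib3 and Chac1, a pseudokinase and a glutathione-degrading enzyme induced through ATF4 and CHOP, were below the signal filter, at 2.74 ± 0.14 and 2.51 ± 0.07 in WT and 2.75 ± 0.20 and 2.69 ± 0.19 in KO (SD, n = 3 each).

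Genes of the same pathways outside the module were counted from lists of general knowledge. For comparison with each list, 6.16% of all genes tested were higher and 2.98% lower at an unadjusted p under 0.05. Of 22 other ER folding genes tested, 3 were higher and 1 lower at an unadjusted p under 0.05, with a median difference of 0.14; 16 of the 22 (72.7%) were positive, against 57.7% of all genes tested. Nucb2, a calcium-binding protein of the secretory pathway, measured 3.44, 3.35 and 4.11 in WT and 4.17, 4.24 and 5.01 in KO mice, at 0.84 ± 0.26 (SE; limma adjusted p = 0.389). It had the order seen in Sdf2l1 and Derl3, with WT mouse 3 highest in WT and KO mouse 3 highest in KO; it was 0.57 without KO mouse 3 and also 0.57 with the pseudocount. Txndc5, a thioredoxin-domain isomerase, was at 0.25 ± 0.10 and Rcn1, a calcium-binding lumenal protein, at -0.33 ± 0.12; the third higher gene was Uggt1, the folding sensor of the calnexin cycle, at 0.29 ± 0.12 and chosen after its value was seen.

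Translocation and glycosylation genes had 18 of 24 tested differences (75.0%) above 0, against 57.7% over all genes, a median of 0.09 and 1 gene higher at that level, Sec61g, at 0.29 ± 0.12 (0.16 without KO mouse 3). Tram1 and Rpn1, of the translocon and the oligosaccharyltransferase, were at 0.30 ± 0.13 and 0.27 ± 0.12 (SE), or 0.19 and 0.17 without KO mouse 3. Other degradation genes had none past that level among 19 tested in limma at either the adjusted or the unadjusted threshold; Ubac2, Erlin2 and Ube2j2 had the smallest p-values, at 0.26, 0.16 and -0.17. Other sensors and regulators had 1 lower gene among 11, Eif2ak2, the RNA-activated kinase PKR, at -0.32 ± 0.13; Ppp1r15b and Creb3l2 were at -0.16 and 0.21.

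Other ATF4 targets were 1 higher and 2 lower among 25 tested at that level (6.16% and 2.98% of all genes tested), with a median of 0.05. Of the 25, 15 (60.0%) had a positive difference, against 57.7% of all genes tested. Atf5, a stress transcription factor, was at 0.44 ± 0.11 (SE; limma adjusted p = 0.336), and here WT mouse 2, not WT mouse 3, lay nearest to KO: it measured 6.78, 6.95 and 6.70 in WT and 7.21, 7.40 and 7.13 in KO mice. Atf3, a factor downstream of ATF4 that is also an immediate early gene, measured 7.45, 6.55 and 4.46 in WT and 4.39, 4.16 and 4.74 in KO mice. Its difference of -1.72 ± 0.62 (SE; limma adjusted p = 0.448) rested on WT mice 1 and 2, being -1.08 without WT mouse 1 and -2.57 without WT mouse 3 (limma adjusted p = 0.00513). Slc38a2, an amino acid transporter, was at -0.37 ± 0.13. The cytosolic heat shock list, the corresponding chaperones outside the ER, also holds the mitochondrial Hspd1 and Hspe1. It had 2 lower and 0 higher among 18 tested (2.98% and 6.16% of all genes tested), with a median of -0.04. Dnajb1, the HSP40 of the cytosol, measured 7.70, 7.98 and 6.40 in WT and 5.45, 5.72 and 5.87 in KO mice, at -1.68 ± 0.35 (SE; limma adjusted p = 0.277). Leaving out WT mouse 3, the WT mouse nearest to KO, gave -2.17 (limma adjusted p = 0.000638), which widens the difference by construction. Hspa8 and Hspa4 were at -0.25 and -0.18.

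**Figure D5:**
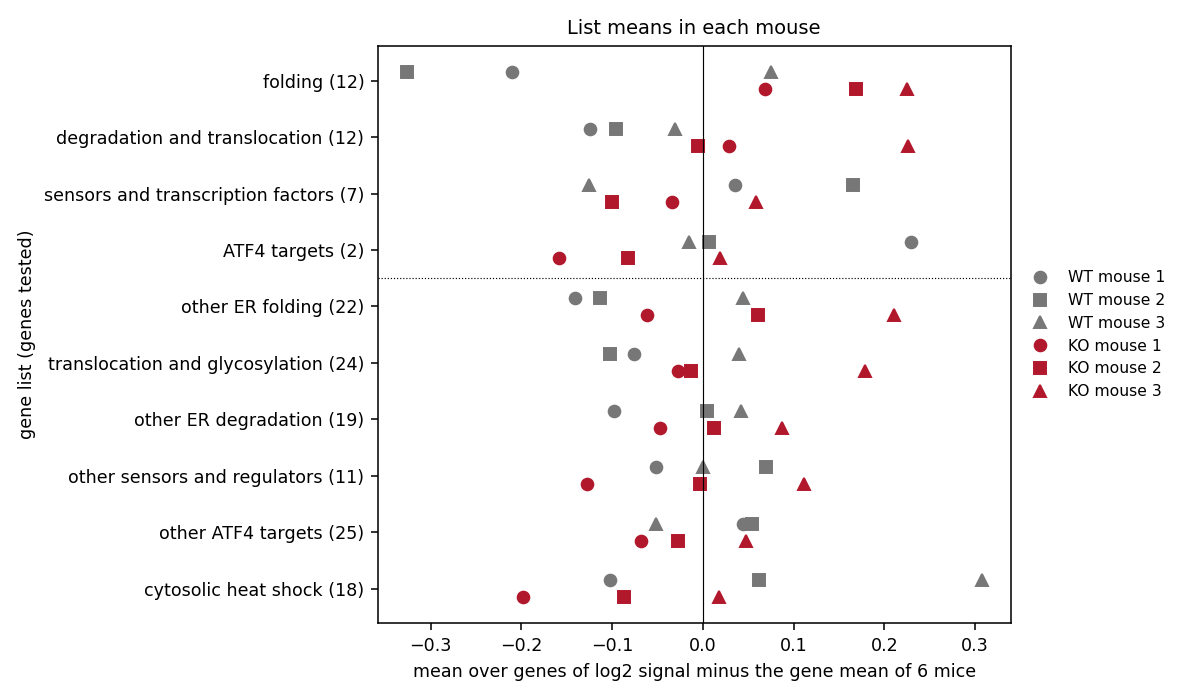
Mean over the tested genes of each list of log2 signal minus the gene's mean, for each mouse (WT grey, KO red; circle, square and triangle for mice 1, 2 and 3); lists above the dotted line are members, those below are other genes. In the folding list WT mice 1 and 2 lie at -0.21 and -0.33 and the other 4 mice between 0.07 and 0.22, with WT mouse 3 at the level of KO mouse 1.

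The mean of the folding list placed each mouse. Relative to the gene means it was -0.21, -0.33 and 0.07 for the WT livers and 0.07, 0.17 and 0.22 for the KO livers, by mouse number. WT mouse 3 was thus level with KO mouse 1 in this list. For the degradation list the means were -0.12, -0.10 and -0.03 in WT and 0.03, -0.01 and 0.23 in KO mice, and for the sensors and factors 0.04, 0.17 and -0.13 in WT and -0.03, -0.10 and 0.06 in KO mice.

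Markers of other secretory and resident cells were read in the same way, because plasma cells and pancreatic acinar cells carry much ER chaperone RNA. Of the B and plasma cell markers 7 were found and 2 were above the filter. The mean of all 7 was between 3.14 and 3.45 in WT and between 3.26 and 3.46 in KO mice, highest in KO mouse 2. Jchain, below the filter, measured 2.41, 2.70 and 3.38 in WT and 3.08, 3.07 and 3.02 in KO mice, highest in WT mouse 3. The differences of the 7 ran from -0.28 to 0.27, so Jchain does not stand for the list. Of 9 acinar markers 3 were above the filter, and the mean of all 9 reached 3.58 in WT mouse 1, against 2.62 to 2.73 elsewhere. This mean thus stood out in WT mouse 1 alone. All 3 markers above the filter had negative differences, with a median of -0.51. Of these 3, 1 was lower at an unadjusted limma p under 0.05 (2.98% of all genes tested). This was Try4, at -0.51 ± 0.21 (SE; limma adjusted p = 0.522), with means of 4.26 in WT and 3.75 in KO. The groups overlapped in Try4, as KO mouse 2, at 4.02, lay above WT mouse 3. The relation of the acinar markers to Derl3 was not tested. The 7 Kupffer cell markers had their highest means in WT mouse 1 and KO mouse 3, at 5.87 and 5.77 against 5.01 to 5.33 in the rest. Their median difference was 0.17 with 6 positive, none with an unadjusted limma p under 0.05. Of 2 bile duct markers above the filter, 1 was higher at an unadjusted p under 0.05 (6.16% of all genes tested). This was Sox9, which gave 5.38, 5.80 and 5.74 in WT and 6.19, 6.12 and 5.85 in KO mice, with no overlap, at 0.41 ± 0.14 (SE). Krt7, also above the filter, was at 0.15, and Krt19 and Epcam, both below it, were at -0.05 and -0.09, so Sox9 does not stand for the list. The mean of all 4 bile duct markers found lay between 3.46 and 3.68 in WT and between 3.63 and 3.70 in KO mice. The 6 stellate cell markers had a median difference of -0.18 with 5 negative, none with an unadjusted limma p under 0.05, and means of 4.92 to 5.37 in WT and 4.86 to 5.20 in KO mice. The 6 sinusoidal endothelial markers had a median difference of 0.04, and Lyz2, the 1 neutrophil and monocyte marker of 6 above the filter, was at 0.11 ± 0.19 (SE). The part of these cells in the members' differences was not tested. The 7 hepatocyte markers had a mean between 10.76 and 10.84 in all 6 mice, with Alb at 11.92 ± 0.02 in WT and 11.91 ± 0.01 in KO (SD, n = 3 each).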

How the data were processed

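Each liver was measured on 1 Affymetrix whole-transcript array. The authors deposited log2 values for 41345 probe sets; per the labels' protocols, biotinylated cRNA was made from Trizol-extracted RNA, with the summary and normalization of probes not given in the sources used here. That the unit is log2 follows from the range of the values. All 6 columns were matched to mice by name.

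Symbols come from the platform annotation, updated through Entrez numbers to RefSeq (GRCm38.p6): 23521 probe sets had 1 symbol, 1814 several and 16010 none listed. The probe set of highest mean was kept per gene, and the upper 50% by mean signal (at least 2.99) was tested. KO and WT were compared with limma 3.58.1 (R 4.3.3; lmFit, eBayes, two-sided, no covariate), with Benjamini-Hochberg adjustment over all 11090 genes at 0.05; single genes also by an exact two-sided permutation test. The fit was tested on simulated data. The number of arrays limits precision: the median SE was 0.11. The array design's build is not stated, so coordinates are those of RefSeq promoter windows.

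Every member is named. Values per mouse were given for members with an unadjusted p under 0.05, for non-overlapping groups and for the 7 sensors, main factors and BiP. Of other lists, the 3 genes of smallest p were named. Uggt1, Jchain, Try4, Sox9, Krt7, Krt19, Epcam, Lyz2, Pan2, Spats2l, Alg12 and Ero1b fall outside that rule, having been picked with their values in view. Members and lists were chosen with earlier results of these data known. The labels give separate mice but not their litters. Alternatives covered the signal filter, probe set choice, normalization, a pseudocount of 8, the variance model, array weights, a replicate block and leaving out each mouse.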

Additional observations from a re-analysis of the deposited data

How the results depend on the processing

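Over the 9 settings that keep all mice and the 6 that leave out 1, 27 of the 33 tested members kept their direction in every setting that included them. Over the 53 single genes followed, none of which passed the adjusted threshold with all mice, 8 of 785 comparisons moved past it and 11 changed sign. The exceptions in sign among members were close to 0: Manf was -0.0043 after quantile normalization and ran from -0.035 to 0.11 with a mouse left out, Syvn1 from -0.054 to 0.13, Os9 from -0.063 to 0.092, Xbp1 from -0.17 to 0.0054, Ddit3 from -0.53 to 0.020 and Asns from -0.031 to 0.19. Alb was 0.0018 after median centring and ran from -0.024 to 0.0005.

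The count of genes changed among all tested was 4; it was 0 in the upper 25% of signal, 1 with the pseudocount, 1 with the replicate block and 1 to 51 with a mouse left out. Members changed numbered 0 in each setting except 3 without WT mouse 3, so the range with a mouse left out is 0 to 3. Members with an unadjusted p under 0.05 ran from 5 to 11 on the higher side and from 1 to 4 on the lower side with a mouse left out. After quantile normalization 2 were lower. The share of all genes at that level was computed only for the main fit and for the fit without WT mouse 3. The median of the sensors and factors ran from -0.15 to -0.0035 with a mouse left out, the latter without WT mouse 2, and was -0.17 after quantile normalization. That of the degradation genes was 0.047 without KO mouse 3. The median of the ATF4 targets was 0.052 with no filter, which adds Trib3 and Chac1, and the upper 25% of signal held none of them. The cause of the other changes was not tested.

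Replicate numbers are shared by the groups. Over all tested genes same-numbered mice did not deviate together, with correlations of 0.06, -0.19 and 0.15. In the folding list, however, mouse 3 had the highest mean of both groups, at 0.07 in WT and 0.22 in KO. The same held for the degradation list, at -0.03 and 0.23. In the sensors and factors mouse 3 was lowest in WT, at -0.13, and highest in KO, at 0.06. The block changed the SE of Sdf2l1 from 0.25 to 0.16 and that of Dnajb9 from 0.150 to 0.157. With the replicate block 9 members were higher and 1 lower at an unadjusted p under 0.05. The share of all genes was not computed for that setting. Derl3 kept its difference of 1.80 (limma adjusted p = 0.0792), and no member passed the adjusted threshold.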
